A study of Mus musculus with 12 samples.

Results

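Cpz and Plscr2 were followed through every treatment group, together with Plscr1 and Plscr3, the relatives of Plscr2, as 4 of the 24421 genes in the count files. The genes were found by their symbols. Cpz and Plscr2 had been picked from the comparison of DAC against control, where they and 2 other genes (Lif and Ccl5) passed both thresholds of the study, 0.05 for the adjusted p-value and 2 for the fold change, as did 0.0344% of the 11638 genes tested. The values that chose them were a log2 fold change of 1.01 with an adjusted p-value of 0.00189 for Cpz and of 1.25 with an adjusted p-value of 0.0441 for Plscr2. Just outside that choice stood Ifit1, with a log2 fold change of 1.09 and an adjusted p-value of 0.054, and Ifitm3, with 0.94 and 0.0068. For this reason the differences of Cpz and Plscr2 from control are described without a test. They were tested only in DAC + SFN against SFN, which contrasts none of the libraries of that choice, and in DAC + SFN against DAC, which contrasts its DAC libraries. All 12 libraries still share 1 model, so the libraries of the choice enter the estimate of the spread and the replicate block of both tests. Plscr1 and Plscr3 were tested in every comparison.

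The RNA came from B16F10, an established mouse melanoma line grown in culture, and each group held 3 libraries from independent biological repeats. Control cells received vehicle (DMSO, 0.025% in the labels). DAC cells received 25 nM 5-aza-2′-deoxycytidine for 72 h, SFN cells received sulforaphane for 48 h, and DAC + SFN cells received both drugs at these times. For sulforaphane the labels give 5 nM in the SFN group and 5 µM in the DAC + SFN group, while the methods of the study give the micromolar dose for both, so that by the labels alone the comparison of DAC + SFN with SFN also holds a difference in dose. The cells were cultured alone, without host tissue. Total counts ranged from 15880957 to 27291436 per library, so that 1 CPM (the read count scaled by the library total) stood for 16 to 27 reads. All 9 melanocyte markers were above 1 CPM in every group, with a summed level of 30000 to 39400 CPM per library. Endothelial markers summed to at most 0.67 CPM and epithelial markers to at most 1.59 CPM.

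Carboxypeptidase Z, the product of Cpz, is a secreted enzyme that binds the extracellular matrix. It joins a metallocarboxypeptidase domain, which removes basic residues from the end of peptides, to a frizzled-like domain of the kind that binds Wnt proteins. The phospholipid scramblases of the Plscr family are membrane-anchored proteins named for moving phospholipids between the leaflets of a membrane in response to calcium. Plscr1 is the best known of them and is also an interferon-stimulated gene, Plscr2 is its close relative, and Plscr3 is linked to mitochondria. DAC is a cytidine analog that is built into new DNA and traps the enzymes that methylate cytosine in CpG pairs. SFN is an isothiocyanate from cruciferous vegetables that is known to activate the antioxidant response.

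In mm10 (GENCODE M21) Cpz lies on the minus strand at chr5:35502218-35525698. Plscr1 (chr9:92249750-92272278) and Plscr2 (chr9:92275602-92297752) stand one behind the other on the plus strand, with 3323 bases from the end of Plscr1 to the start of Plscr2. Plscr4 and Plscr5 lie in the same group of genes, which spans 299521 bases. Plscr3 is apart from them, at chr11:69846376-69852058 on the plus strand, and 891 of its exon bases overlap Tnk1 on the other strand. The stranded kit separates such reads, but the strand setting of the counting is not given in the sources used here, and the counts of Plscr3 may include reads of Tnk1.

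Since Plscr1 had many more reads than Plscr2, the first point was whether reads of 1 could be counted for the other. Their coding sequences were identical at 762 of 921 aligned bases (82.7%), against 57.0% to 65.6% for the other pairs of the family. The stretch of 75 bases (the read length) of the Plscr2 coding sequence that came closest to Plscr1 is shown. It marks the limit of what a read of full length can tell apart. It lies in chr9:92290793-92290984 for Plscr2 and in chr9:92266545-92266719 for Plscr1, both across an intron, and capitals mark the 2 bases that differ (GENCODE M21 transcripts, mm10, plus strand).
Plscr2: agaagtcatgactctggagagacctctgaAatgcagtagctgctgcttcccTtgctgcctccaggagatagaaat
Plscr1: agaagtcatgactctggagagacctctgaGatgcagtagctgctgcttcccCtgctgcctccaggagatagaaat
Only 13 of 847 coding windows of Plscr2 came within 2 mismatches of Plscr1, and the median window differed at 11 bases. No 75-base window of the Plscr2 transcript (0 of 1826) or of the Cpz transcript (0 of 2171) was identical to one in another gene. For Plscr1 157 of 2228 windows (7.05%) were shared with the pseudogene Gm5530, and for Plscr3 678 of 2711 (25.0%) with Tnk1. The study trimmed its reads, so that some can be shorter than 75 bases, and shorter windows were not tested. The files give Plscr1 and Plscr2 the same Entrez identifier, 22038, so the genes were followed by symbol, and which records were counted under each symbol rests on the symbols alone.

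The start sites of Cpz and Plscr1 are shown because DAC acts on CpG pairs, which are in capitals in both. Sequences and positions are from RefSeq on GRCm38.p6 and run from 250 bases before to 50 bases after the start. The table of RefSeq start sites used here held 3 of the 4 genes (Cpz, Plscr1 and Plscr3) and not Plscr2. The Cpz window, chr5:35525577-35525876 on the minus strand, held 13 CpG pairs, 9 of them in its last 100 bases.
Cpz: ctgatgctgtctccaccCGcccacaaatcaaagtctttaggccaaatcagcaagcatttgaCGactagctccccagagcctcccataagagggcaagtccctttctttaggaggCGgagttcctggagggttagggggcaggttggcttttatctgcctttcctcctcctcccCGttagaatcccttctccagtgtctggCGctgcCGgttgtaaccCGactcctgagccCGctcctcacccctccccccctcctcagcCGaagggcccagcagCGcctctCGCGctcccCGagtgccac
The Plscr1 window, chr9:92249944-92250243 on the plus strand, held 7 CpG pairs.
Plscr1: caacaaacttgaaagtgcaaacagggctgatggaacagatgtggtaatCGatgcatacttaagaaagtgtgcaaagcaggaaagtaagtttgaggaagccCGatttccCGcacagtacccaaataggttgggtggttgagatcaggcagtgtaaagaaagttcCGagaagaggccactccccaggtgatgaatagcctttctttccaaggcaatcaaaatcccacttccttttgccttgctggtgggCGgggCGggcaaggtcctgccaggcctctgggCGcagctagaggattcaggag
Across 32851 windows of this length the median was 7 CpG pairs, with quartiles of 3 and 20, and 37.9% held as many as Cpz or more. At least 1 CpG pair stood in 94.6% of them. The 3 windows of Plscr3 held 19 to 26 pairs. On either strand, the core of the antioxidant response element (TGACNNNGC, in 12.4% of all windows, and able to hold a CG) was in neither of these windows of Cpz and Plscr1 and in 1 of the 3 windows of Plscr3. These are matches of letters and say nothing about methylation or binding in these cells.

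Cpz was highest in the 2 groups that received DAC. Its levels in replicates 1, 2 and 3, as CPM scaled by TMM (a correction for library composition), were 6.35, 9.64 and 8.89 in control cells and 13, 19.0 and 18.0 in DAC cells. They were 9.36, 13.8 and 11.4 in SFN cells and 19.1, 22.0 and 18.5 in DAC + SFN cells. Every DAC and every DAC + SFN library stood above every control library, and SFN overlapped control, with a lowest SFN value of 9.36 and a highest control value of 9.64. The mean of control was 8.29 ± 1.72 and that of DAC 16.7 ± 3.2, and the means of SFN and DAC + SFN were 11.5 ± 2.23 and 19.9 ± 1.86 (SD, n = 3). In the order control, SFN, DAC, DAC + SFN, each group overlapped the next one. Within replicates the order of DAC and SFN was the same throughout, with DAC above SFN in replicates 1, 2 and 3. In bulk RNA, more cells that express a gene and more RNA of it per cell cannot be told apart.

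As a description, the log2 fold change of Cpz against control was 1.01 ± 0.12 (SE) with DAC, 0.48 ± 0.12 with SFN and 1.28 ± 0.11 with DAC + SFN. Each of the 3 replicates was higher than its control in all of these comparisons. With DAC the replicates were close to each other, at differences of 1.03, 0.97 and 1.01 on the log2 scale, whereas with DAC + SFN they were 1.58, 1.18 and 1.05. Groups of higher level that did not overlap control were seen for 4.09% of all 11638 tested genes with DAC and for 15.1% with DAC + SFN.

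In SFN-treated cells, Cpz was higher when DAC was also given, in groups that its choice did not compare. The lowest DAC + SFN library (18.5 CPM) stood above the highest SFN library (13.8 CPM), as was the case for 5.23% of all genes tested. The log2 fold change in DAC + SFN against SFN was 0.80 ± 0.11 (95% confidence interval 0.57 to 1.04), which is 1.74-fold, with an adjusted p-value of 0.0116 in edgeR's quasi-likelihood test. It ranked as number 3 of 11638 genes by p-value, and 109 genes (0.937%) were called higher and 187 (1.61%) in either direction. Differences within replicates were 1.02, 0.67 and 0.70 on the log2 scale. The exact two-sided permutation test of 3 against 3 libraries gave p = 0.1, the smallest p that it allows. The call was lost without the replicate block (adjusted p = 0.338), without number 2 in all groups (0.0634), and when SFN replicate 1 (0.135), SFN replicate 3 (0.149) or DAC + SFN replicate 1 (0.0795) was left out, at log2 fold changes between 0.66 and 0.87.

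Adding SFN to DAC gave a smaller difference in Cpz. DAC + SFN overlapped DAC (18.5 against 19.0 CPM), and the log2 fold change was 0.27 ± 0.11 (95% confidence interval 0.04 to 0.49) with an adjusted p-value of 0.108, which did not pass the threshold. The differences within replicates were 0.55, 0.21 and 0.04, positive in 3 of 3. The estimate of the interaction, which is the DAC difference with SFN minus that without SFN, was -0.21 ± 0.16 for Cpz, and -0.35 to -0.13 with each library left out in turn. It subtracts the difference by which Cpz was chosen.

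**Figure D1:**
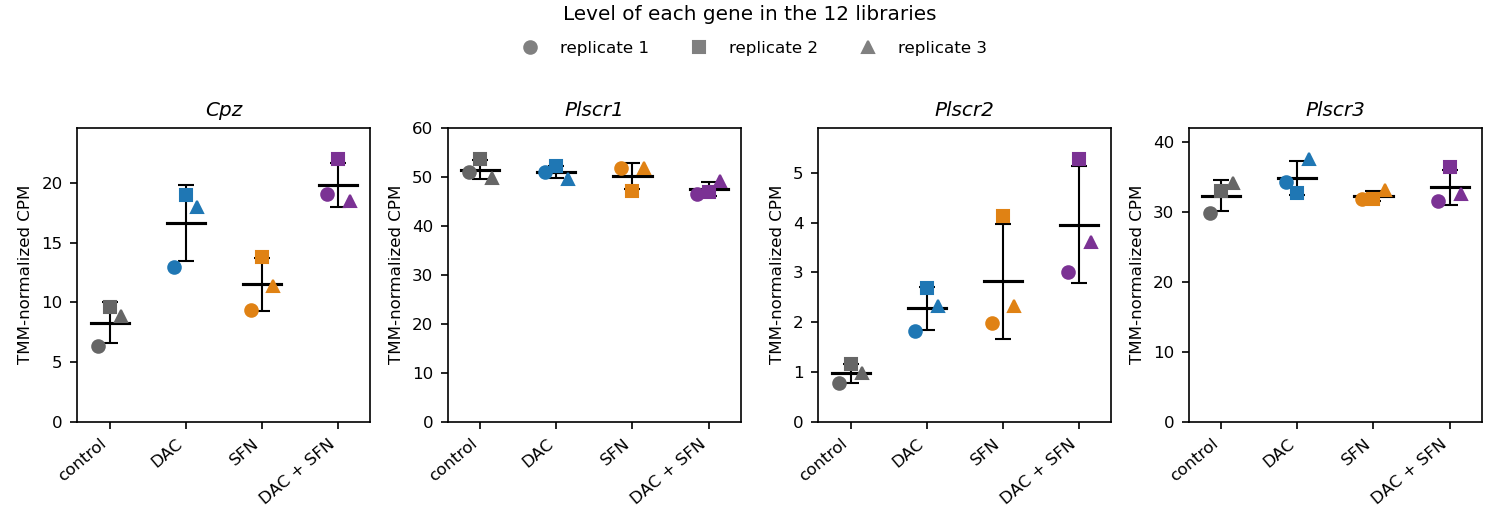
Level of each gene in the 12 libraries, in TMM-scaled CPM (linear axes from 0, a separate axis per gene), by treatment group. Symbols are replicates, bars the mean and whiskers the SD (n = 3). Cpz and Plscr2 were lowest in control cells, while Plscr1 stayed between 46.6 and 53.6 CPM and Plscr3 between 29.8 and 37.5 CPM.

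Plscr2 was a low gene in control cells and was higher in all 3 treated groups. It had 17, 27 and 19 reads in control replicates 1, 2 and 3 and 44, 42 and 62 reads in DAC cells. In SFN cells it had 42, 110 and 57 reads and in DAC + SFN cells 66, 110 and 77. As TMM-scaled CPM, control libraries were at 0.782, 1.16 and 0.976 and DAC libraries at 1.82, 2.68 and 2.32. Those given SFN were at 1.98, 4.14 and 2.33, and those given both drugs at 3.0, 5.27 and 3.60. No library of a treated group came down to the control range. The means were 0.973 ± 0.190, 2.27 ± 0.431, 2.82 ± 1.16 and 3.96 ± 1.17 CPM (SD, n = 3) in this order. Neighbours in the order control, DAC, SFN, DAC + SFN overlapped except control and DAC.

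As a description, Plscr2 differed from control by a log2 fold change of 1.25 ± 0.22 (SE) with DAC, 1.51 ± 0.22 with SFN and 2.01 ± 0.21 with DAC + SFN. Separate and higher groups were seen for 10.9% of all genes in SFN against control. Unlike Cpz, whose SFN difference from control (0.48) was the smaller of its single-drug differences, Plscr2 had estimates of similar size for both drugs. This contrast rests on the DAC differences by which the genes were chosen, and it was not tested. Within replicates the DAC differences were 1.13, 1.15 and 1.18 and the SFN differences 1.24, 1.76 and 1.18 on the log2 scale, and those of DAC + SFN were 1.83, 2.1 and 1.79. The estimate of the interaction was -0.75 ± 0.29 for Plscr2. It subtracts the DAC difference for which the gene was picked as high, so that its negative sign is in part set by the choice, and it is not tested.

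Adding SFN to DAC raised Plscr2. The lowest DAC + SFN library (3.0 CPM) was above the highest DAC library (2.68 CPM), which was so for 9.19% of all genes. The log2 fold change was 0.77 ± 0.18 (95% confidence interval 0.37 to 1.16), which is 1.70-fold, with an adjusted p-value of 0.0123 in edgeR, where 9.55% of all genes were called higher and 16.1% in either direction. It was positive in 3 of 3 replicates, at 0.69, 0.95 and 0.61. The DAC libraries of this test are among those in which the gene was chosen as high. The call was lost without the replicate block (log2 fold change 0.81, adjusted p = 0.223), without number 2 in all groups (0.66, adjusted p = 0.0958) and without DAC replicate 2 (adjusted p = 0.0772).

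Adding DAC to SFN left Plscr2 short of the threshold. DAC + SFN and SFN overlapped (3.0 against 4.14 CPM), and the log2 fold change was 0.50 ± 0.18 (95% confidence interval 0.12 to 0.88), with a p-value of 0.013 before and 0.152 after adjustment. The exact two-sided permutation test, which does not use the pairing and allows no p under 0.1, gave p = 0.3. All 3 replicates were higher with both drugs, by 0.58, 0.34 and 0.61. The interval includes differences close to that of Cpz in the same comparison, so that the call for Cpz and its absence for Plscr2 do not show that these genes differ, and that difference was not tested.

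**Figure D2:**
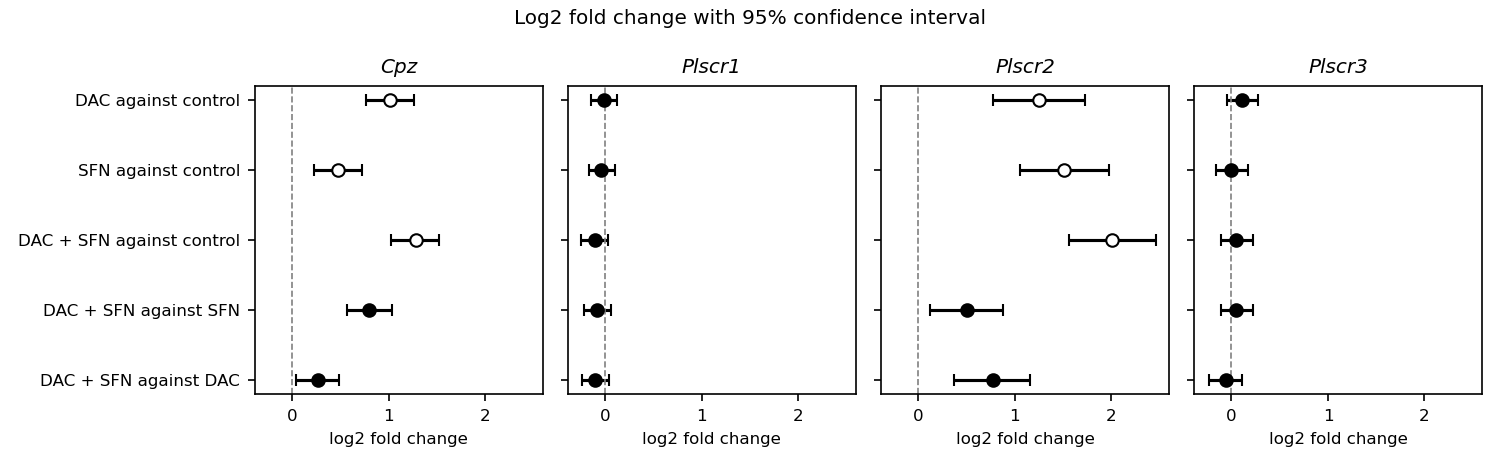
Log2 fold change (point) and 95% confidence interval (bar) of each gene in the 5 comparisons, all on the same axis; open points are differences of Cpz and Plscr2 from control, described without a test. The intervals of Plscr1 and Plscr3 include 0 in every comparison, and that of Cpz in DAC + SFN against SFN runs from 0.57 to 1.04.

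Replicate 2 was the highest for Plscr2 and for Cpz in each of the 4 groups. The replicate term of the model was significant for Plscr2 (adjusted p = 0.00661 in edgeR, replicate 2 above replicate 1 by 0.79 on the log2 scale) and for Cpz (adjusted p = 0.00721, by 0.46), as it was for 33.9% of all genes. It was not for Plscr1 (adjusted p = 0.993) or Plscr3 (0.416). Library numbers in the labels follow the replicate number, so that a library batch and the replicate cannot be told apart.

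Plscr1 was the most abundant of these genes and stayed nearly level. Its 3 control libraries were at 51.0, 53.6 and 49.8 CPM, and the DAC libraries at 51.1, 52.3 and 49.7. Libraries of SFN cells were at 51.8, 47.1 and 51.8 CPM, and those of DAC + SFN cells at 46.6, 46.9 and 49.2. The DAC + SFN libraries were all below control and below DAC, as they were for 14.3% and 8.98% of all genes, by small amounts. The log2 fold changes against control were -0.01 with DAC (95% confidence interval -0.15 to 0.12, adjusted p = 0.964), -0.04 with SFN (-0.17 to 0.10, adjusted p = 0.763) and -0.11 with DAC + SFN (-0.25 to 0.03, adjusted p = 0.2). In these comparisons 0.180%, 13.9% and 31.6% of all genes were called. DAC + SFN differed from SFN by -0.08 (adjusted p = 0.572) and from DAC by -0.10 (adjusted p = 0.324). The interaction estimate was -0.06 ± 0.092 (adjusted p = 0.981), in a test that called 0 of 11638 genes, with 683 (5.87%) at an unadjusted p-value under 0.05 and 0 in DESeq2.

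Plscr3, the mitochondrial member, did not pass the test in any comparison either. Its 3 control libraries were at 29.8, 33.0 and 34.2 CPM, and the DAC libraries at 34.3, 32.7 and 37.5. Libraries of SFN cells were at 31.9, 31.9 and 33.1 CPM, and those of DAC + SFN cells at 31.6, 36.4 and 32.5. All groups overlapped control. Against control the log2 fold change was 0.11 with DAC (95% confidence interval -0.05 to 0.28, adjusted p = 0.663), 0.00 with SFN (-0.16 to 0.17, adjusted p = 0.987) and 0.05 with DAC + SFN (-0.11 to 0.22, adjusted p = 0.63).

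Per kilobase of exon, Plscr2 was the lowest of these genes in each group. In control cells the levels were 20.9 CPM per kilobase for Plscr1, 10.3 for Plscr3, 3.69 for Cpz, 2.34 for Plscr4 and 0.306 for Plscr2. Plscr5 had 0 reads in every library, which allows at most 3 reads or 0.189 CPM. Plscr1 was 68.3 times Plscr2 per kilobase in control cells, and 29.0, 23.0 and 15.4 times in the DAC, SFN and DAC + SFN groups. Cpz stood at 7.44 CPM per kilobase with DAC and 8.86 with DAC + SFN, beside 2.13 and 2.57 for Plscr4.

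The ratio of Plscr2 to Plscr1 reads compares a pair of adjacent genes within each library, and so does not depend on the scaling between libraries. Control replicates 1, 2 and 3 had 1.53, 2.17 and 1.96 Plscr2 reads for each 100 Plscr1 reads. DAC cells had 3.56, 5.13 and 4.68, SFN cells 3.81, 8.79 and 4.50, and DAC + SFN cells 6.45, 11.2 and 7.31. The control values were below all the others, and the SFN and DAC values overlapped. Since Plscr2 was chosen for its level with DAC, these ratios to control are a description. In DAC + SFN against SFN the groups overlapped, while the ratio was higher with both drugs in each of the 3 replicate pairs. The exact two-sided permutation test, which does not use the pairing, gave p = 0.3. The ratio shows an unequal change of 2 neighbours and not that Plscr1 did not change.

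**Figure D3:**
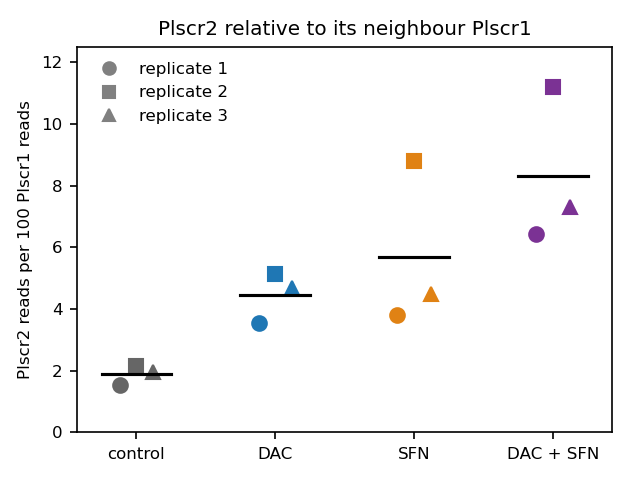
Plscr2 reads per 100 Plscr1 reads in each library (points, linear axis from 0) with the mean of each group (bar, n = 3). The mean was 1.89 for control, 4.46 for DAC, 5.70 for SFN and 8.33 for DAC + SFN, and replicate 2 was the highest in every group.

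None of the tested genes beside Plscr2 passed the threshold. Of the 6 nearest protein-coding genes (3 on each side), 4 were expressed enough to be tested, and 0 of 4 were called in each of the 5 comparisons by edgeR or by DESeq2, or had an unadjusted p-value under 0.05, with log2 fold changes between -0.13 and 0.26. Over all genes the share called was 0.180%, 13.9% and 31.6% for DAC, SFN and DAC + SFN against control, and 1.61% and 16.1% for DAC + SFN against SFN and against DAC, so that 0 of 4 is near the background in most of these. The neighbours tested were Plscr1, the developmental transcription factor Zic4, Plscr4 and Plod2, a lysyl hydroxylase of collagen. The other neighbours were Plscr5, with no reads, and 1700057G04Rik, with 0 to 4 reads. Plscr4 had 129 to 246 reads, and its log2 fold change in DAC + SFN against DAC was 0.26 ± 0.13 (adjusted p = 0.176).

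Around Cpz, the neighbours were Hmx1 and Adra2c with no reads, and Lrpap1, Trmt44, Acox3 and Htra3, which were tested. In the comparisons that add DAC, 0 of 4 were called by edgeR or DESeq2, with 0 at an unadjusted p-value under 0.05 in DAC against control and 2 in DAC + SFN against SFN. In DAC + SFN against control 3 of 4 were higher, where 17.0% of all genes were. These were Htra3, a secreted serine protease, by 1.03 (adjusted p = 0.00709), Acox3, a peroxisomal oxidase, by 0.41 (adjusted p = 0.00268), and Lrpap1, a chaperone of lipoprotein receptors, by 0.32 (adjusted p = 0.000868). Lrpap1 was also called with SFN alone, at 0.27 (adjusted p = 0.00579), and in DAC + SFN against DAC, at 0.26 (adjusted p = 0.00837). In these comparisons 8.27% and 9.55% of all genes were higher. Htra3 differed by 0.46 (adjusted p = 0.59) in DAC against control, with 27 to 209 reads per library.

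**Figure D4:**
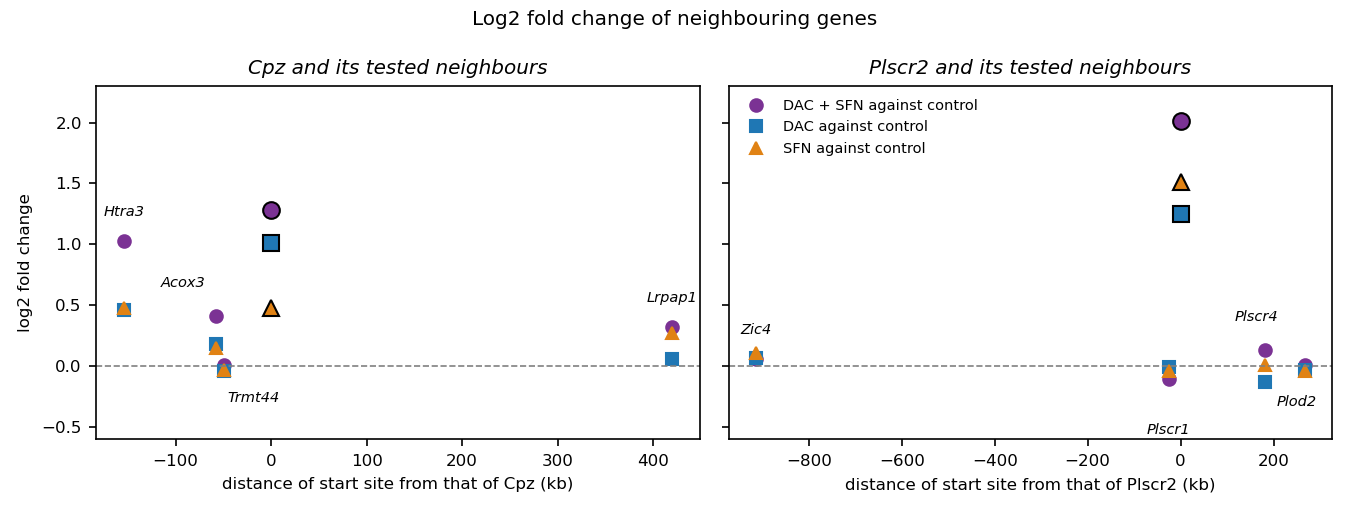
Log2 fold change against control (vertical axis) of the tested neighbours of Cpz (left) and Plscr2 (right), by the distance of their start site in kilobases. Symbols are the 3 treatments and outlined symbols are Cpz and Plscr2 themselves. The neighbours of Plscr2 lie between -0.13 and 0.13, and Htra3 reaches 1.03 with DAC + SFN.

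Other genes with the functions of Cpz and Plscr2 were examined as whole lists. Of 23 metallocarboxypeptidases of the M14 family, 8 were tested, and without Cpz 0 of 7 were called by edgeR in DAC against control (1 at an unadjusted p-value under 0.05, and 1 by DESeq2) and 0 of 7 in DAC + SFN against SFN (0 by both). With 0.180% and 1.61% of all genes called there, such counts are near the background. With SFN, Cpe, which trims peptide hormones, rose by 0.58 (adjusted p = 3.08e-05) over control and by 0.44 (adjusted p = 0.000376) when SFN was added to DAC. Cpm, a membrane-bound relative, rose by 0.63 (adjusted p = 0.0268) and 0.67 (adjusted p = 0.0161), and Cpd, a relative of the Golgi, rose by 0.24 (adjusted p = 0.0157) when SFN was added to DAC. Without Cpz the median of the list was -0.08 in DAC against control and 0.22 in DAC + SFN against DAC, where the median of all genes was 0.00 in both.

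Among 23 proteins with a frizzled domain, 12 were tested. Cpz was the only one called higher in DAC + SFN against SFN, where 0.937% of all genes were. The count of 0 of 11 without Cpz is near that background. Fzd7, a Wnt receptor, fell by 0.21 (adjusted p = 0.0436) in DAC + SFN against DAC and by 0.23 (adjusted p = 0.0157) against control. No other member of the 11 without Cpz was called in any comparison by edgeR, with 0 to 3 of the 11 at an unadjusted p-value under 0.05. Over all genes 0.180%, 13.9% and 31.6% were called in DAC, SFN and DAC + SFN against control. In DAC + SFN against SFN and against DAC 1.61% and 16.1% were called. Of the 19 Wnt ligands only 2 had enough reads to be tested. Wnt9a rose by 1.27 with SFN (adjusted p = 0.00423) and by 1.94 with DAC + SFN (adjusted p = 6.29e-05) against control, and by 0.89 (adjusted p = 0.0146) in DAC + SFN against DAC. It differed by 1.05 (adjusted p = 0.145) with DAC and by 0.67 (adjusted p = 0.114) in DAC + SFN against SFN.

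The list of other scramblases held the Xkr and Ano proteins, those of autophagy membranes, and Bsg, Nptn and Tmem63b. Of its 20 genes 11 were tested. In DAC + SFN against SFN 1 was higher, Ano3 by 0.27 (adjusted p = 0.0425), beside 0.937% of all genes. DESeq2 called 2 of the 11 there, and the median was 0.02. In DAC + SFN against DAC, where Plscr2 rose, 9.55% of all genes were higher and 6.60% lower. In that comparison Ano3 rose by 0.45 (adjusted p = 0.000311) and Tmem63b by 0.31 (adjusted p = 0.0112), while Tmem41b fell by 0.37 (adjusted p = 0.0028). Against control, 0 were called with DAC by edgeR or DESeq2 (1 at an unadjusted p-value under 0.05), 2 were higher and 2 lower with SFN (8.27% and 5.65% of all genes), and 3 were higher and 3 lower with DAC + SFN (17.0% and 14.7%). Xkr8 and Ano6, the scramblases of dying cells and of platelets, were not called in any comparison.

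The flippases of the P4-ATPase family, which move phospholipids to the inner leaflet, were tested for 11 of 18 genes with their partner subunits. In DAC against control and in DAC + SFN against SFN 0 were called by edgeR or DESeq2, with 1 at an unadjusted p-value under 0.05 in each, beside 0.180% and 1.61% of all genes called. Atp10b had a mean of 0.807 CPM in control cells and rose with SFN to 2.38 CPM (log2 fold change 1.55, adjusted p = 0.000973) and by 1.20 (adjusted p = 0.00306) in DAC + SFN against DAC. Tmem30a, a partner subunit, rose by 0.20 (adjusted p = 0.0243) in the latter comparison, and Atp11a fell by 0.17 (adjusted p = 0.0407) with SFN against control.

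**Figure D5:**
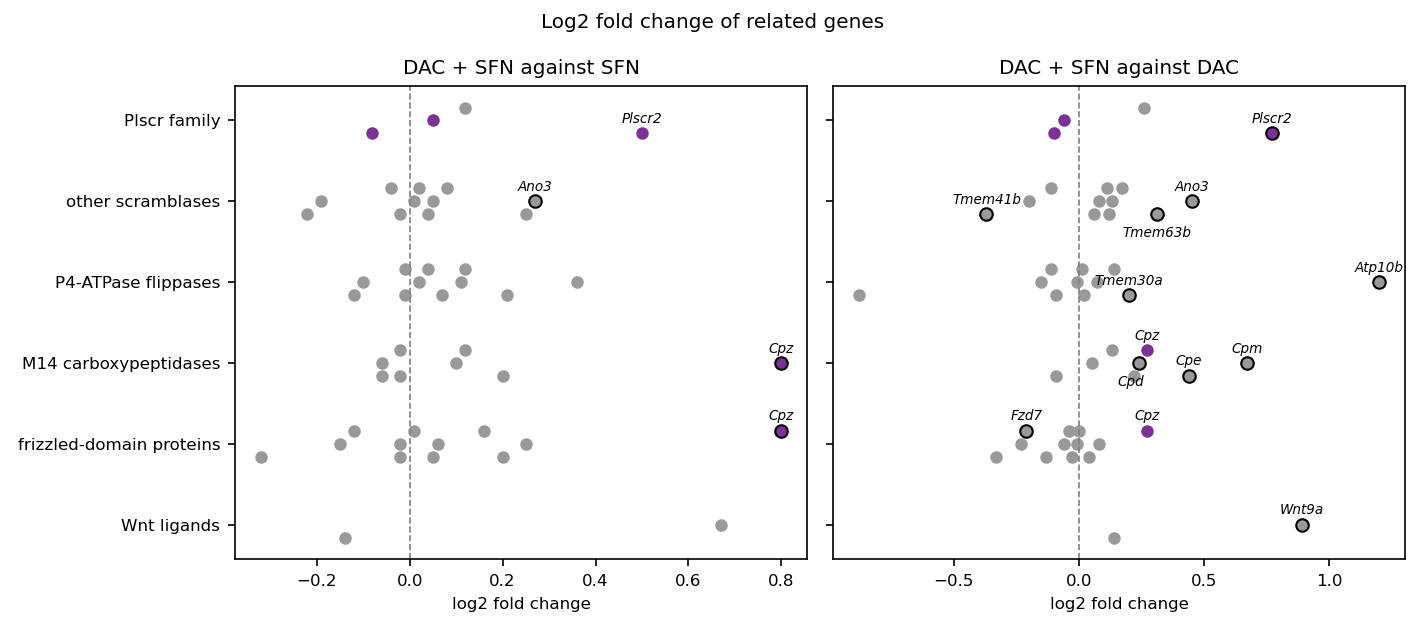
Log2 fold change of each tested gene of the lists in DAC + SFN against SFN (left) and against DAC (right); purple points are the genes described here, and an outline marks an adjusted p-value under 0.05. In the left panel Cpz (0.80) and Ano3 (0.27) are outlined, and in the right panel Plscr2 (0.77) and Atp10b (1.20) are among the outlined genes.

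Plscr1 was set beside a list of 30 other interferon-stimulated genes, of which 28 were tested. Their median log2 fold change was 0.72 with DAC, -0.25 with SFN and 0.39 with DAC + SFN against control, and 0.79 in DAC + SFN against SFN, where Plscr1 had -0.08. In that last comparison 11 of 28 were higher and 0 lower, beside 0.937% of all genes that were higher. These included Isg15, a ubiquitin-like modifier (1.13, adjusted p = 0.0422), Rsad2, an antiviral enzyme (1.07, adjusted p = 0.0279), and Ifih1, an RNA sensor (0.76, adjusted p = 0.0278). Without the replicate block, and without SFN replicate 3, 0 of all genes were called in DAC + SFN against SFN, so that these calls were lost. In DAC against control 0 of 28 passed the adjusted threshold in edgeR and 6 in DESeq2, where 0.180% of all genes were called by edgeR, while 24 had an unadjusted p-value under 0.05 and all 28 estimates were above 0. With SFN 5 were lower (5.65% of all genes), and with DAC + SFN 12 were higher than control (17.0% of all genes).

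The genes most like each member were found by Pearson's r of log2 CPM over the 12 libraries after the mean of each replicate number was removed. The libraries share their treatment groups, so these values describe the pattern and carry no p-value. For Cpz they included Tbkbp1 (r = 0.98), Fbxo32 (0.958), Zfp346 (0.957) and Klhl22 (0.954). For Plscr2 they were Slc25a34 (0.985), Ces2e (0.982), Greb1 (0.977), Btbd19 (0.976) and Dnaic2 (0.976). All of these had smaller estimates than their member in DAC against control, except Ces2e (1.95) and Greb1 (1.27). They ran from 0.16 to 0.46 for those of Cpz and from 0.35 to 0.60 for Slc25a34, Btbd19 and Dnaic2. Since Cpz and Plscr2 were chosen for a high estimate in that comparison, smaller ones in other genes follow in part from the choice. Cpz and Plscr2 had r = 0.843 with each other, and Plscr1 and Plscr2 had r = -0.662. Cpz and Plscr2 were both chosen as high with DAC in some of these libraries, so that their r is in part set by the choice. For Plscr1 the first were Lancl2 (0.958) and Eif2b1 (0.953), and for Plscr3 C030037D09Rik (0.882) and Atxn7l3 (0.88).

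Markers of other cell types were set beside these results. Of 6 leukocyte markers only Cd68, a lysosomal protein, passed the filter. Its mean was 3.34 CPM for control, 4.99 for DAC, 7.21 for SFN and 9.68 for both drugs, and it rose by 1.11 (adjusted p = 0.000729) with SFN and by 0.94 (adjusted p = 0.0017) in DAC + SFN against DAC. The summed leukocyte markers ranged from 2.36 to 4.78 CPM for control, 3.93 to 5.93 for DAC, 6.16 to 9.03 for SFN and 8.31 to 11.2 for both drugs. Ptprc, the pan-leukocyte marker, Cd3e, Itgam and Adgre1 had at most 3 reads in any library. Fibroblast markers summed to 17.9 to 359 CPM with overlapping ranges in all groups. Of these Pdgfra, a growth factor receptor, fell by 0.84 (adjusted p = 0.024) with SFN and by 0.73 (adjusted p = 0.0249) with DAC + SFN against control. Dcn, Lum and Thy1 had at most 3 reads. Most of the fibroblast sum was Col1a1, with 284 to 9514 reads per library and 133 ± 157 CPM (SD, n = 3) in control cells. Col1a1 was not called in any comparison, at -0.20 with SFN and 0.16 with DAC + SFN against control. The part of any of these markers in the levels of Cpz and Plscr2 was not tested.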

How the data were processed

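RNA-seq was performed on 12 B16F10 cultures (4 groups, 3 independent repeats each). The authors trimmed reads with Trimmomatic 0.38 after FastQC 0.11.7, aligned them to mm10 with TopHat2 2.1.1, counted them with HTSeq and deposited raw counts per gene symbol. The annotation and the strand setting of the counting are not given in the sources used here. Genes that reached 1 CPM in 3 or more libraries (11638 of 24421) were scaled by TMM and fitted in 1 model over the 12 libraries in edgeR 4.0.16 (R 4.3.3, legacy quasi-likelihood fit, prior count 0.125), with the replicate number as a block. Tests were two-sided, adjusted by Benjamini-Hochberg over all genes tested, with a threshold of 0.05, and the study adds a fold change above 2. P-values measure the spread between these repeats.

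Samples with the same replicate number deviated together (18 pairs, r from 0.27 to 0.732), so the numbers pair the samples. Those with different numbers had a mean r of -0.267. Deviations from a group mean cancel within the group, so that this negative value is not separate evidence. The pairing comes from the labels' numbers and this check. No libraries were copies, since replicates differed by a chi-square of at least 13.6 per gene. The genes, lists and comparisons were chosen with earlier results of these data known. Genes are named where they belong to Cpz and the Plscr family, are among the 3 nearest protein-coding genes on each side, are the 5 most alike in pattern, or are called members of the lists (Plscr genes, other scramblases, flippases, M14 carboxypeptidases, frizzled-domain proteins, Wnt ligands, interferon-stimulated genes and cell type markers). Xkr8, Ano6, Bsg, Col1a1 and the markers at few reads were named outside this rule, after their values were seen. Positions and transcripts were from GENCODE M21 and start sites from RefSeq. Log2 differences between replicates carry a prior count of 2. The alternatives were DESeq2 1.42.0 (size factors, Wald test), other filters and prior counts, the version 4 fit, a robust fit, no replicate block, only the groups compared, number 2 left out, and each library left out in turn. The fit was also run on simulated data, and the outcome is not reported here. Plots were made in Python 3.11.15 with matplotlib 3.10.9. A few genes that the rule names are not reported here.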

Additional observations from a re-analysis of the deposited data

How the results depend on the processing

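Of 268 alternative values of the levels and comparisons of the 4 genes, apart from leaving out single libraries, 252 kept their direction, call or size. The blocked fit is the one reported, and pairing by replicate number mattered. Without the replicate block, Cpz in DAC + SFN against SFN was 0.78 (adjusted p = 0.338), Plscr2 in DAC + SFN against DAC 0.81 (adjusted p = 0.223) and Plscr2 in DAC against control 1.21, and the genes called in DAC, SFN and DAC + SFN against control and in DAC + SFN against SFN and against DAC fell from 21, 1619, 3683, 187 and 1879 to 0, 23, 1201, 0 and 20. With 0 genes called in DAC against control, the calls by which Cpz and Plscr2 were chosen were lost too. Leaving out the block changed no other call in the tested comparisons of the 4 genes. With number 2 left out in all groups these counts were 0, 429, 1762, 3 and 863, Cpz in DAC + SFN against SFN was 0.87 (adjusted p = 0.0634) and Plscr2 in DAC + SFN against DAC 0.66 (adjusted p = 0.0958). In that fit Plscr1 was 0.00 with DAC and 0.03 with SFN, and Plscr3 was 0.00 in DAC + SFN against control and -0.02 against SFN, all reversed in sign and uncalled. Plscr3 in SFN against control also turned sign, at 0.00 with DESeq2's size factors, its Wald test, at least 10 counts and only the groups compared, and at -0.01 without a filter. Plscr2 in DAC against control was 1.22 with only the groups compared and 1.18 with a prior count of 2. The cause of these differences was not tested. DESeq2's Wald test called 83 genes with DAC and 404 in DAC + SFN against SFN, the version 4 fit 33 with DAC, and no filter 169, 486 and, for the interaction, 1 in place of 0. Only the groups compared gave 663, 1267 and 748 for DAC, DAC + SFN against SFN and DAC + SFN against DAC. In fits of only these groups Cpz had 0.79 (adjusted p = 4.29e-05) and Plscr2 0.50 (adjusted p = 0.0734) in DAC + SFN against SFN.

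Leaving out each library in turn gave 0 to 101, 726 to 2105, 2333 to 4199, 0 to 703 and 769 to 2377 called genes in the order above. Cpz ranged from 0.94 to 1.07 with DAC, from 0.66 to 0.88 in DAC + SFN against SFN (9 of 12 fits under an adjusted p of 0.05) and from 0.13 to 0.35 in DAC + SFN against DAC, where it was called only without DAC + SFN replicate 3 (adjusted p = 0.0457). Plscr2 ranged from 1.13 to 1.37 with DAC, from 0.65 to 0.86 in DAC + SFN against DAC (11 of 12 fits) and from -0.86 to -0.56 for the interaction. Plscr1 ranged from -0.05 to 0.03 with DAC and from -0.08 to 0.02 with SFN, and Plscr3 from -0.04 to 0.02 with SFN, from -0.03 to 0.10 with DAC + SFN and from -0.02 to 0.11 in DAC + SFN against SFN, uncalled in all. The levels of the 4 genes moved by less than 1 SD under DESeq2's size factors and unscaled CPM. At 17 to 27 reads in control, counting error limits the level of Plscr2.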
